A study of Homo sapiens with 15 samples.

Results

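Amino acids cross the plasma membrane through carrier proteins, and 9 genes that encode such carriers are described here in human bronchial epithelial cells exposed to fine particulate matter (PM2.5). The 9 genes are *SLC7A5*, *SLC3A2*, *SLC7A1*, *SLC38A1*, *SLC38A2*, *SLC1A4*, *SLC1A5*, *SLC6A9* and *SLC43A1*. They were chosen by name, as the rows of the deposited count table whose Ensembl identifier carries one of these symbols. All 9 were found among the 58219 genes of the table, and all 9 were among the 17599 genes that passed the filter on low counts.

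BEAS-2B is an immortalized line of human bronchial epithelial cells, and all cells were grown without serum on collagen-coated plates. RNA was sequenced from 15 libraries in 5 conditions, each with 3 separate experiments. At 24 h the conditions were vehicle control, 1 µg/cm2 of PM2.5 and 30 µg/cm2 of PM2.5, each given once. In a repeated protocol, medium was changed daily, with PM2.5 at 1 µg/cm2 or without it (control, 7 days), and the wells were rinsed between changes. The sample labels give 7 days of exposure and the study's methods describe 6 daily treatments before RNA was taken on day 7. The particles were collected on filters in Beijing in winter and were brought into water by sonication. One immortalized line under submerged culture stands here for the airway lining, and no other cell type was added.

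The carriers differ in what they move. The protein of *SLC7A5* brings in large neutral amino acids such as leucine in exchange for others, and it reaches the cell surface only when bound to the glycoprotein encoded by *SLC3A2*, its heavy chain. The carrier of *SLC7A1* takes up arginine and lysine, those of *SLC38A1* and *SLC38A2* take up glutamine and alanine together with sodium, and those of *SLC1A4* and *SLC1A5* exchange small neutral amino acids and glutamine. The carrier of *SLC6A9* takes up glycine, and that of *SLC43A1* lets large neutral amino acids pass down their gradient without a heavy chain. Cells short of amino acids, or under stress of the endoplasmic reticulum, phosphorylate the translation factor eIF2α and make more of the transcription factor ATF4, which switches on many carrier genes in what is called the amino acid response. Leucine and arginine that enter the cell are sensed at the lysosome by the machinery that activates mTORC1, a kinase complex that promotes growth.

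The libraries held 21460981 to 34724765 counts each (median 29243177). Levels are given as CPM, counts scaled to the size of the library with edgeR's TMM factors, and 3 counts, taken as the floor, equalled 0.0864 to 0.140 CPM. The 9 carriers together took 0.240% to 0.274% of the counts in the 24-h controls, and each had at least 172 counts in every library. *CYP1A1*, a target of the aryl hydrocarbon receptor that polyaromatic hydrocarbons switch on, averaged 1.10 CPM in the 24-h controls, 131 CPM after 1 µg/cm2, 23.0 CPM after 30 µg/cm2, and 2.20 and 31.6 CPM in the controls and treated cells of the repeated protocol. Of the 6 epithelial markers, the 24-h controls held 748 CPM of *KRT5*, 641 of *KRT8*, 423 of *KRT18* and 274 of *KRT17*, with 80.9 of *CDH1* and 36.0 of *EPCAM*. Among 4 fibroblast markers, *COL1A1* stood at 42.0 CPM and *DCN* at 5.40, while *LUM* and *PDGFRA* were under 1 CPM. Of the leukocyte markers *PTPRC*, *LYZ*, *CD68* and *CD3E*, *PTPRC* had 2 counts over all 15 libraries and *LYZ* had 0. The levels of *CD68* and *CD3E* are not given here, so the leukocyte markers are described in part only. The endothelial markers *PECAM1*, *VWF* and *CDH5* had 20, 32 and 9 counts. After 30 µg/cm2, *KRT5*, *KRT8* and *CDH1* were called lower (log2 fold-changes of -2.46, -0.85 and -0.70), and their part in the carrier results was not tested. The libraries of experiment 2 at 24 h stood apart. Between libraries of one condition, the chi-square of the counts per degree of freedom would be near 1 if only sampling noise set them apart. It was 68.6 to 161 for pairs that include experiment 2, 4.11 to 16.4 between experiments 1 and 3, and 4.04 to 23.1 in the repeated protocol. The main 24-h results of the carriers are therefore also given without experiment 2.

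Promoters of the carriers are shown because several of these genes were called higher together after 30 µg/cm2, and a shared short motif can be read by eye. RefSeq promoter windows on GRCh38.p14, from 250 bases before to 50 bases after a transcript start, were found for all 9 genes, 16 windows in all. The motifs searched, on both strands, were TGATGNAA, the composite element to which ATF4 and C/EBP proteins bind, TNGCGTG, the core that the aryl hydrocarbon receptor reads, and CACGTG, the E-box of MYC and MAX. The first was in a window of 5 of the 9 genes, against 4.46% of all 27305 genes. By window it was in 5 of the 16, against 3.62% of all 35116 windows. Each sequence below is written 5′ to 3′ on the strand of its gene, with the matched bases in capitals.
SLC7A1 (chr13:29595664-29595691, minus strand): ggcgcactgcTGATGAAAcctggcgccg
SLC38A1 (chr12:46266503-46266530, minus strand): cagacccgaaTGATGAAAagggatcagc
SLC1A5 (chr19:46784894-46784921, minus strand): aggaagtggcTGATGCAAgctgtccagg
SLC1A4 (chr2:64989382-64989409, plus strand): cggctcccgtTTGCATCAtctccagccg
SLC3A2 (chr11:62881721-62881748, plus strand): aatgtgcaggactccTTACATCAgctcc
In *SLC1A4* and *SLC3A2* the motif lies on the other strand, so that its reverse complement is read in capitals. Counted with the first transcribed base as position 1, the match begins at position 8 in *SLC7A1*, 38 in *SLC3A2*, -4 in *SLC38A1*, -7 in *SLC1A4* and -97 in *SLC1A5*. In the genes with several windows, *SLC1A4*, *SLC3A2*, *SLC38A1* and *SLC1A5*, 1 window of each held it. The window of *SLC7A5* held an E-box at position -130.
SLC7A5 (chr16:87869620-87869647, minus strand): ccggacgacgCACGTGctccgagctggg
E-boxes were also in windows of *SLC1A5* and *SLC43A1*, so 3 of the 9 genes had one, against 8.77% of all genes. By window it was 3 of the 16, against 7.26% of all windows. The receptor core was in windows of *SLC1A4* and *SLC1A5*, 2 of the 9 genes, against 6.69% of all genes. By window it was 2 of the 16, against 5.51% of all windows. A match is a run of letters in this window and was not tested as a binding site. Of the genes with the first motif, *SLC3A2*, *SLC7A1* and *SLC1A4* were called higher after 30 µg/cm2 in the fit of all 15 libraries. *SLC38A1* and *SLC1A5* were not, and *SLC7A5*, which was called, held no match to it. Any link of the motifs to the changes was not tested.

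In untreated cells the leucine carrier and its heavy chain were among the most abundant of the 9 mRNAs. Levels are compared between genes as RPKM, the CPM per kilobase of exon. In the 24-h controls *SLC7A5* averaged 126 ± 4.34 RPKM (SD, n = 3), *SLC38A2* 107 ± 12.2, *SLC3A2* 95.4 ± 36.1, *SLC1A5* 59.4 ± 17.8 and *SLC38A1* 45.4 ± 7.88. The cationic carrier *SLC7A1* stood at 20.0 ± 2.37 RPKM, and 3 genes were low, with *SLC43A1* at 5.89 ± 1.16, *SLC1A4* at 5.63 ± 1.79 and *SLC6A9* at 2.20 ± 1.78. In this order the ranges of the 3 libraries overlapped between *SLC38A2* and *SLC3A2*, *SLC3A2* and *SLC1A5*, *SLC1A5* and *SLC38A1*, and *SLC43A1* and *SLC1A4*, so those neighbours are not separated. *SLC7A5* was the most abundant in 4 of the 5 conditions by mean RPKM, and *SLC6A9* was the least abundant in all 5. After daily exposure *SLC3A2* came first, at 192 ± 6.20 RPKM against 184 ± 13.4 for *SLC7A5*, and these ranges overlapped. *SLC1A5*, at rank 4 in both controls and after a single 1 µg/cm2, took rank 3 after 30 µg/cm2, at 93.8 ± 18.5 RPKM against 84.2 ± 21.4 for *SLC38A2*, again with overlapping ranges. There it was above *SLC38A2* in only 1 of the 3 libraries, that of experiment 2. It was also at rank 3 after daily exposure, at 81.9 ± 6.50 RPKM against 79.7 ± 13.6 for *SLC38A2*, with overlapping ranges.

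**Figure D1:**
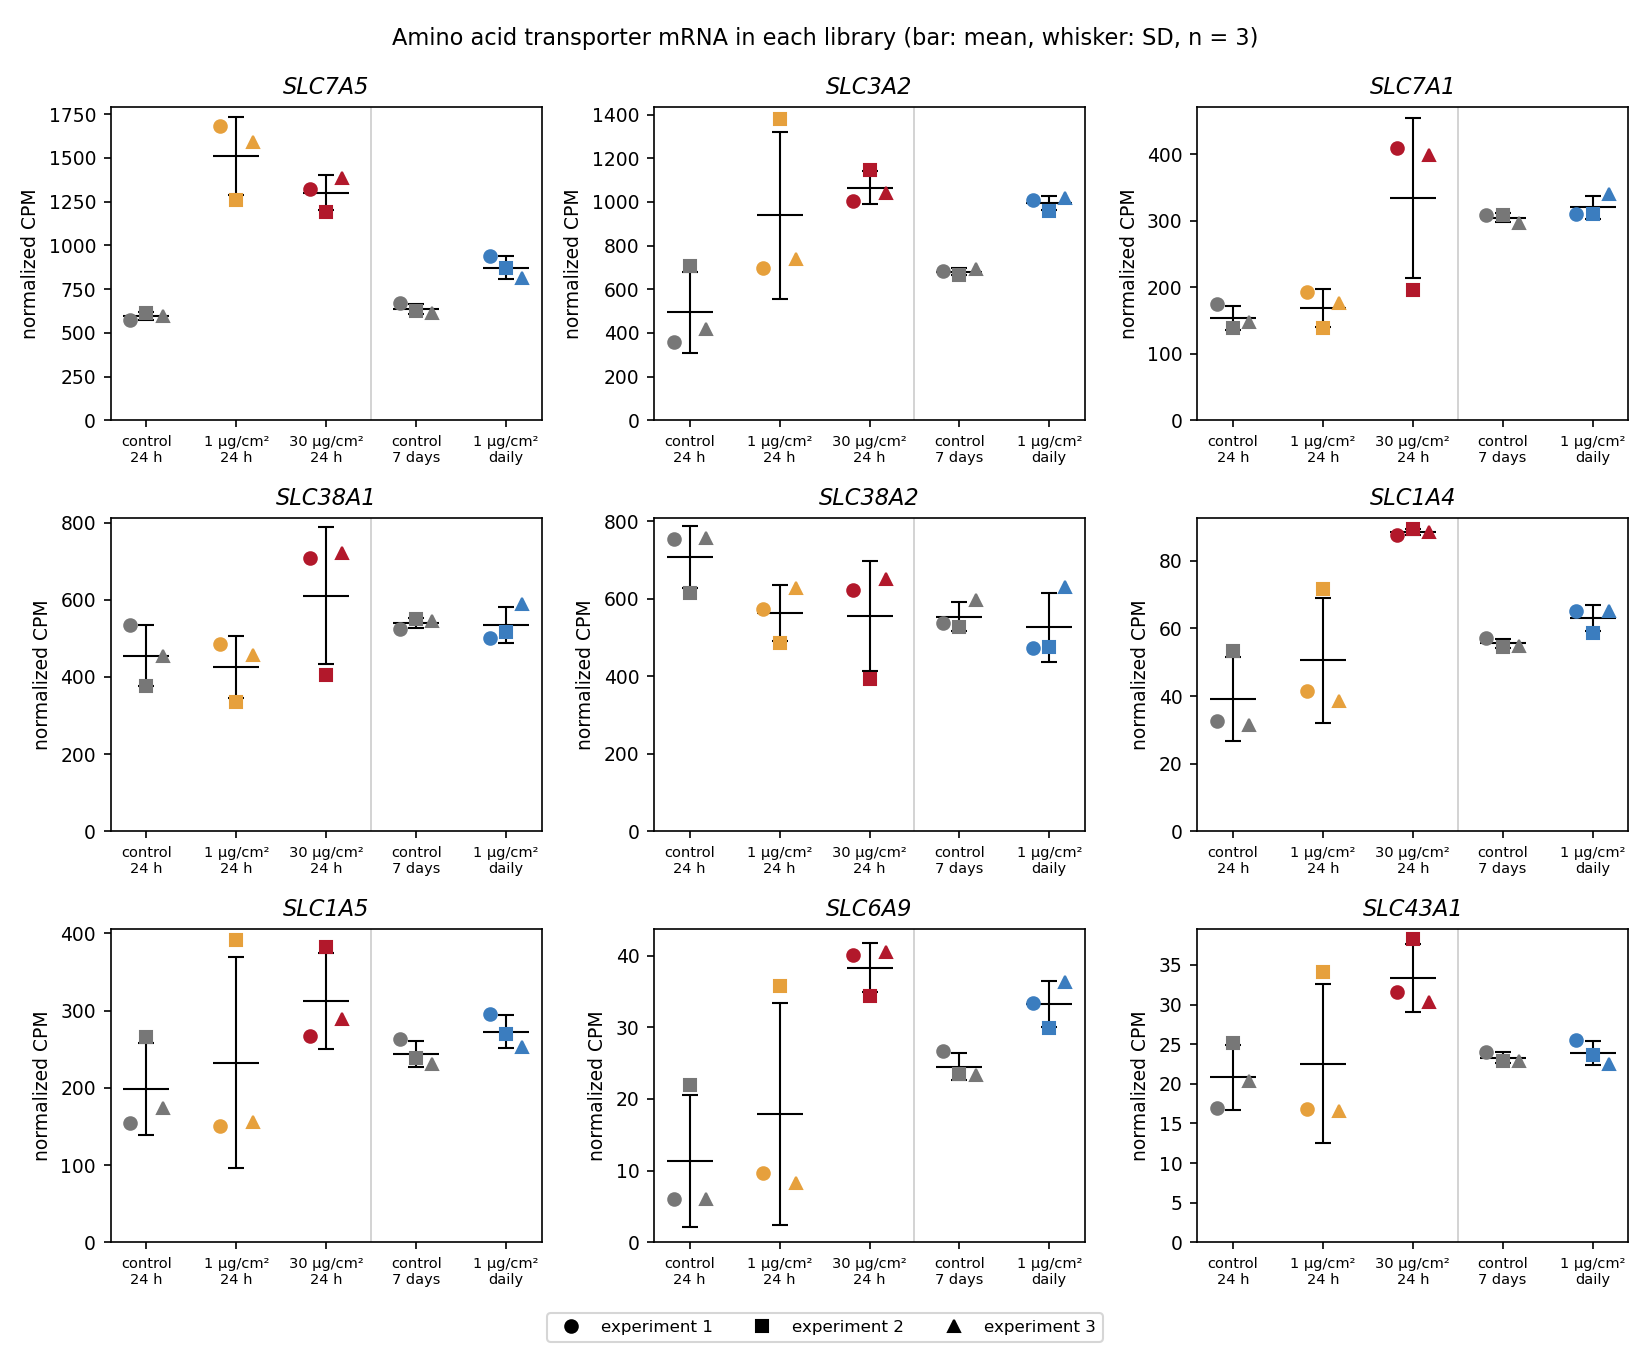
TMM-normalized CPM of the 9 carriers in each of the 15 libraries, with 1 panel per gene and the 5 conditions on the horizontal axis; circles, squares and triangles are experiments 1, 2 and 3, bars are means and whiskers SDs (n = 3). After 30 µg/cm2 the 3 libraries of every gene except SLC38A1 and SLC38A2 lie above all 3 controls, and the square of experiment 2 is the highest control of 6 genes.

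A single exposure to 30 µg/cm2 of PM2.5 raised the mRNA of the leucine carrier, its heavy chain, the arginine carrier and the small neutral exchanger *SLC1A4* to about the same extent. The fold was 2.18 for *SLC7A5*, 2.15 for *SLC3A2*, 2.17 for *SLC7A1* and 2.27 for *SLC1A4*. These 4 of the 9 genes were called, which takes an edgeR quasi-likelihood p under 0.05 after Benjamini-Hochberg adjustment over all tested genes and a log2 fold-change of 0.6 or more in size. Of all tested genes, 8.07% were called and 3.82% were called higher. The 3 treated libraries lay above the 3 controls in 7 of the 9 genes, as in 11.7% of all genes, and no carrier lay entirely below. In RNA of a whole culture, less of a transcript in each cell and fewer cells that hold it cannot be told apart. The median log2 fold-change was 1.11 over the 9 carriers and 0.03 over all tested genes.

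*SLC7A5* was measured at 575, 616 and 598 CPM in the 24-h controls of experiments 1, 2 and 3 and at 1325, 1190 and 1388 CPM after 30 µg/cm2. Every treated library held nearly the same large excess, and the controls were the tightest of the 9 genes. This is a log2 fold-change of 1.13 (SE 0.128, edgeR adjusted p = 0.000122), and of 1.20 without experiment 2. *SLC3A2* had 358, 707 and 417 CPM in the controls and 1002, 1148 and 1042 CPM after treatment. Here the control of experiment 2 was high, and its treated library was only slightly higher than the other two. The log2 fold-change was 1.11 (SE 0.262, edgeR adjusted p = 0.0154) and 1.38 without experiment 2, with 1.49, 0.70 and 1.32 inside experiments 1, 2 and 3. The call was lost without the control of experiment 1 (0.90, edgeR adjusted p = 0.0747) and without that of experiment 3 (0.98, edgeR adjusted p = 0.0773).

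*SLC7A1*, the arginine and lysine carrier, had 174, 139 and 148 CPM in the controls and 410, 196 and 399 CPM after 30 µg/cm2. All treated libraries were above all controls, but the one of experiment 2 was far lower than the other two. The log2 fold-change was 1.12 (SE 0.223, edgeR adjusted p = 0.00563), and inside the experiments it was 1.23, 0.49 and 1.43. Without experiment 2 it was 1.31. *SLC1A4*, a carrier of serine, alanine and cysteine, had 32.6, 53.4 and 31.3 CPM in the controls and 87.6, 89.5 and 88.5 CPM after treatment. The treated libraries were nearly identical, so the smaller change inside experiment 2 (0.75, against 1.43 and 1.5) came with its higher control. Its log2 fold-change was 1.18 (SE 0.228, edgeR adjusted p = 0.00470), and 1.45 without experiment 2.

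A further 3 carriers did not overlap between groups but were not called in this fit. The glycine carrier *SLC6A9* had 5.99, 21.9 and 6.09 CPM in the controls and 40.0, 34.4 and 40.6 CPM after 30 µg/cm2. The control of experiment 2 alone stood close to the treated libraries. The log2 fold-change was 1.77 (SE 0.533, edgeR adjusted p = 0.0507), against 2.74, 0.65 and 2.73 inside experiments 1, 2 and 3. The glutamine exchanger *SLC1A5* had 154, 266 and 174 CPM in the controls and 267, 383 and 288 CPM after treatment, a log2 fold-change of 0.66 (SE 0.312, edgeR adjusted p = 0.222). *SLC43A1* had 16.9, 25.1 and 20.4 CPM in the controls and 31.6, 38.3 and 30.3 CPM after treatment, a log2 fold-change of 0.69 (SE 0.237, edgeR adjusted p = 0.0870). In *SLC1A5* the highest control and the lowest treated library nearly touched, and in *SLC43A1* they were farther apart. Without experiment 2 these values were 0.74 and 0.72.

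The experiment number marks cells handled together, and with it as a replicate block these 3 genes were called as well. The log2 fold-changes with the block were 2.13 for *SLC6A9* (edgeR adjusted p = 0.000828), 0.69 for *SLC1A5* (edgeR adjusted p = 0.00327) and 0.70 for *SLC43A1* (edgeR adjusted p = 0.00233). That made 7 of the 9 carriers, all higher, where the block called 15.2% of all genes and 7.36% higher. The same number, 7, was called without experiment 2, where 19.1% of all genes were called and 9.16% higher, and *SLC6A9* then stood at 2.72. It was also 7 without the experiment 2 library of 1 µg/cm2, which is in no group of this comparison and enters only through the estimate of spread. A fit of these 6 libraries alone called 2 of the 9 carriers, where 2.23% of all genes were called.

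*SLC38A1* and *SLC38A2* kept overlapping groups. *SLC38A1* had 534, 377 and 454 CPM in the controls and 707, 405 and 721 CPM after 30 µg/cm2, a log2 fold-change of 0.43 (SE 0.208, 95% interval -0.02 to 0.87, edgeR adjusted p = 0.237). *SLC38A2* had 753, 616 and 756 CPM in the controls and 622, 393 and 652 CPM after treatment, a log2 fold-change of -0.35 (SE 0.188, 95% interval -0.75 to 0.05, edgeR adjusted p = 0.284). *SLC38A2* is thus the only carrier of the 9 whose estimate was below 0, and it was lower than its own control in all 3 experiments. Without experiment 2 the estimates were 0.52 for *SLC38A1* and -0.26 for *SLC38A2*. With the block both had adjusted p-values under 0.05 in edgeR (0.0142 and 0.0181), at log2 fold-changes of 0.40 and -0.38 that are under the fold required for a call.

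**Figure D2:**
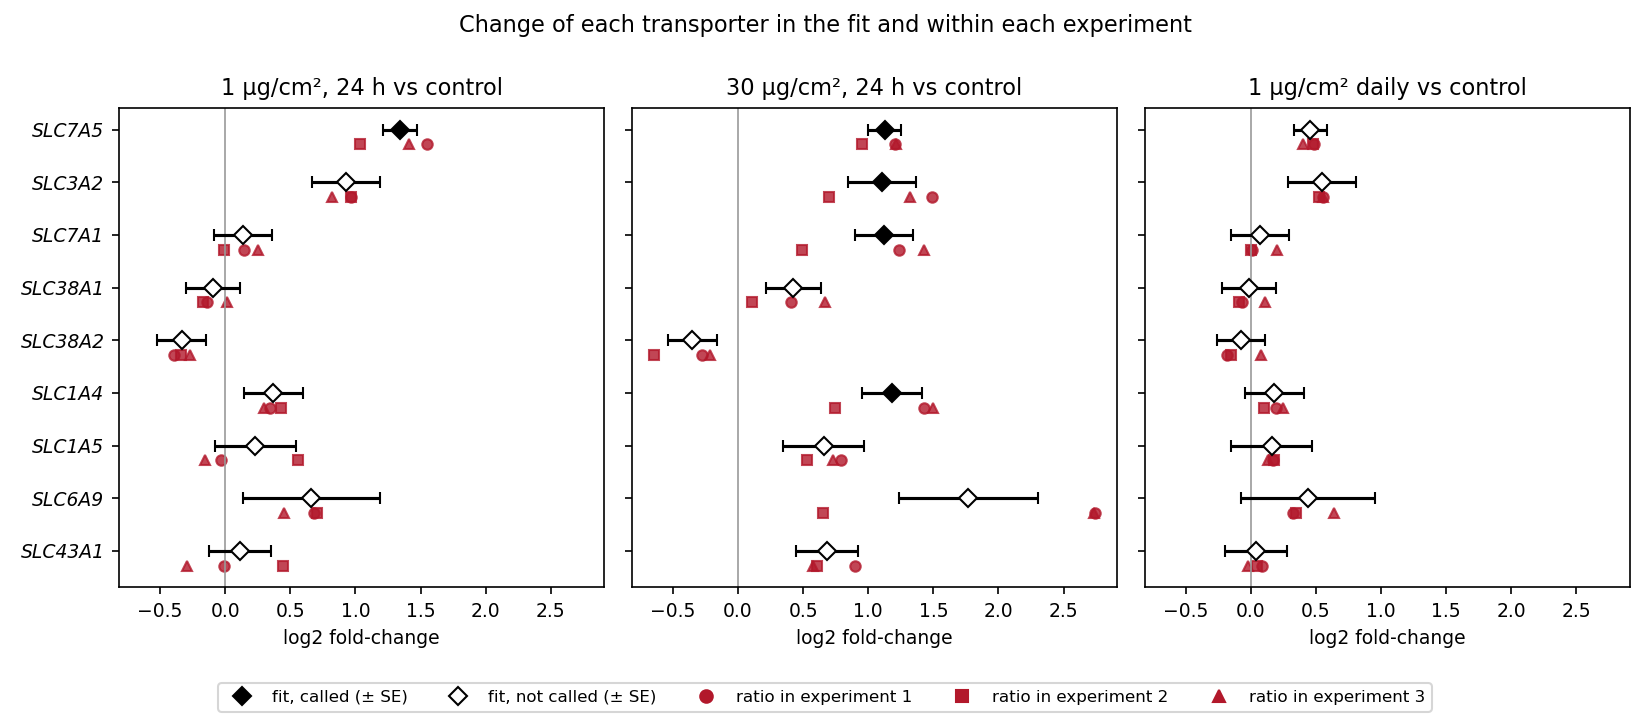
Log2 fold-change of each carrier (horizontal axis) against the control of its protocol after 1 µg/cm2 and 30 µg/cm2 for 24 h and after daily 1 µg/cm2; diamonds are the fit of all 15 libraries with SE, filled where called, and circles, squares and triangles are the ratios inside experiments 1, 2 and 3. SLC7A5 is called after both single doses, SLC3A2, SLC7A1 and SLC1A4 after 30 µg/cm2, and the square of experiment 2 lies to the left of the circle and the triangle for every gene except SLC43A1 after 30 µg/cm2.

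At the low dose of 1 µg/cm2 for 24 h, *SLC7A5* was the only carrier called, at levels that overlapped those after 30 µg/cm2. Its libraries had 1684, 1260 and 1589 CPM against 575, 616 and 598 CPM in the controls. The lowest treated library was more than 2 times the highest control. The log2 fold-change was 1.34 (SE 0.129, edgeR adjusted p = 0.000292), with 1.55, 1.03 and 1.41 inside the experiments and 1.49 without experiment 2. This 1 of 9 carriers stands against 0.0625% of all tested genes, 11 genes in all, and its libraries did not overlap the controls, as in 4.44% of all genes. A fit of the 6 libraries alone called 0 of the 9 carriers, where 0.0124% of all genes were called. Of the 9, 2 had an unadjusted p under 0.05 in the fit of all 15 libraries, with edgeR and with DESeq2 alike, and DESeq2 called 1, where it called 0.222% of all genes.

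*SLC3A2*, the heavy chain, was not called at this dose. It had 698, 1381 and 737 CPM after 1 µg/cm2 against 358, 707 and 417 CPM in the controls. The ranges overlapped because the control of experiment 2 exceeded the lowest treated library, while the ratio inside each experiment was close to the others, at 0.96, 0.97 and 0.82 on the log2 scale. The log2 fold-change was 0.93 (SE 0.261, edgeR adjusted p = 0.937). It was called with the block (0.92, edgeR adjusted p = 0.0120) and without experiment 2 (0.90, edgeR adjusted p = 9.17e-06). Both fits thus called 2 of the 9 carriers, where 0.42% and 2.11% of all genes were called.

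The other 7 carriers had log2 fold-changes of -0.33 to 0.66 after 1 µg/cm2, and their groups overlapped. *SLC6A9* had 9.62, 35.7 and 8.32 CPM, *SLC1A5* 151, 391 and 156 CPM and *SLC43A1* 16.8, 34.1 and 16.6 CPM. In these 3 genes the library of experiment 2 was more than 2 times each of the others, as its control had also been the highest. The log2 fold-changes were 0.66 for *SLC6A9* (95% interval -0.47 to 1.79), 0.23 for *SLC1A5* (-0.44 to 0.90) and 0.11 for *SLC43A1* (-0.40 to 0.62). *SLC38A2* again had the lowest estimate, -0.33 (95% interval -0.74 to 0.07), with 574, 485 and 628 CPM, and it was below its own control in all 3 experiments. *SLC7A1* had 193, 138 and 176 CPM, *SLC38A1* 485, 335 and 457 CPM, and *SLC1A4* 41.4, 71.7 and 38.4 CPM. Without experiment 2 the estimates of these 7 genes were -0.32 to 0.58, and those of *SLC1A5* (-0.09) and *SLC43A1* (-0.15) changed sign.

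The direct comparison of both doses separates carriers that were higher at the high dose from *SLC7A5*, which was not. *SLC7A1* was 1.98-fold and *SLC1A4* 1.76-fold higher after 30 than after 1 µg/cm2, and the libraries of both doses did not overlap in either gene. Their log2 fold-changes were 0.98 (SE 0.222, edgeR adjusted p = 0.0126) and 0.81 (SE 0.226, edgeR adjusted p = 0.0363). These 2 of 9 calls stand against 7.84% of all genes called and 3.62% called higher, and the 2 of 9 genes without overlap against 21.6% of all genes. *SLC7A5* had a log2 fold-change of -0.22 (SE 0.127, 95% interval -0.49 to 0.06, edgeR adjusted p = 0.326) and was lower at the high dose in all 3 experiments. *SLC3A2* had 0.18 (SE 0.259, 95% interval -0.38 to 0.74), positive in experiments 1 and 3 and negative in experiment 2. Without experiment 2 the estimates were -0.29 for *SLC7A5*, 0.49 for *SLC3A2*, 1.11 for *SLC7A1* and 1.12 for *SLC1A4*.

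*SLC6A9* differed most between experiments in this comparison, with log2 ratios of 2.06, -0.06 and 2.28. It was called with the block (1.5, edgeR adjusted p = 0.00641), as was *SLC43A1* (0.64, edgeR adjusted p = 0.00397), which made 4 of the 9 carriers, where 15.6% of all genes were called. Without experiment 2 *SLC1A5* was added (0.83, edgeR adjusted p = 5.63e-06), which made 5, where 17.3% were called, and *SLC6A9*, *SLC43A1* and *SLC38A1* were then at 2.14, 0.87 and 0.58. Both carriers of the SLC38 family overlapped between doses, with log2 fold-changes of 0.52 for *SLC38A1* (95% interval 0.07 to 0.97) and -0.02 for *SLC38A2* (-0.42 to 0.39), the latter at 0.06 without experiment 2. The call of *SLC7A1* was lost without the 30 µg/cm2 library of experiment 1 (edgeR adjusted p = 0.0764) or 3 (0.0686). That of *SLC1A4* was lost without any single library of the repeated protocol, the least of them at an edgeR adjusted p = 0.0511, and without experiment 1 or 3 of either dose. A fit of the 6 libraries alone called 0 of the 9, where 0.918% of all genes were called.

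After daily exposure to 1 µg/cm2 the highest estimates were those of the leucine carrier pair and the glycine carrier. No carrier of the 9 was called by the edgeR quasi-likelihood test, where 0.227% of all genes were. DESeq2 also called 0, where it called 1.65% of all genes, and 1 of the 9 had an unadjusted p under 0.05 in edgeR and 2 in DESeq2. *SLC3A2* had 685, 665 and 693 CPM in the 7-day controls and 1008, 957 and 1017 CPM after daily exposure. *SLC7A5* had 669, 624 and 614 CPM against 938, 871 and 811 CPM. In both genes all treated libraries were well above all controls, and the spread inside each group was small. The log2 fold-changes were 0.55 for *SLC3A2* (SE 0.260, edgeR adjusted p = 0.429) and 0.46 for *SLC7A5* (SE 0.127, edgeR adjusted p = 0.157). With the block the adjusted p-values in edgeR were 0.0281 and 0.0192, again at folds too small for a call. Without the 24-h libraries of experiment 2, which are in no group of this comparison, they were 9.04e-05 and 0.000335. From the libraries compared alone they were 0.000174 and 0.000809. The folds were too small for a call in these fits as well. The fit with the block also called 0 of the 9 carriers, where 4.39% of all genes were called.

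In 5 of the 9 carriers the daily libraries lay entirely above the controls, where 42.9% of all genes did not overlap and 21.3% lay above. *SLC6A9* had 26.6, 23.5 and 23.3 CPM in the controls and 33.4, 29.9 and 36.3 CPM after daily exposure, a log2 fold-change of 0.44 (95% interval -0.66 to 1.54). The edgeR adjusted p of *SLC6A9* was 0.790, and 0.00181 without 24-h experiment 2. It was 0.00470 from the libraries compared alone, and the fold was too small for a call in each fit. *SLC1A4* had 57.1, 54.6 and 54.9 CPM against 65.1, 58.6 and 65.3 CPM, a log2 fold-change of 0.18 (95% interval -0.30 to 0.67). *SLC7A1* had 309, 309 and 296 CPM against 310, 310 and 340 CPM, so both groups nearly touched. The 4 others overlapped. *SLC1A5* had 263, 239 and 230 CPM against 296, 270 and 253 CPM, and *SLC43A1* 24.1, 22.9 and 22.9 CPM against 25.5, 23.7 and 22.6 CPM. Both carriers of the SLC38 family crossed their controls, *SLC38A1* with 525, 549 and 546 CPM against 501, 515 and 589 CPM, and *SLC38A2* with 537, 528 and 597 CPM against 474, 475 and 630 CPM.

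Whether the daily response differed from that to a single dose was tested as an interaction. For *SLC7A5* the daily response to 1 µg/cm2 minus the single response was -0.88 on the log2 scale (SE 0.18, 95% interval -1.27 to -0.50), but the edgeR adjusted p was 0.351. The interval is that of this gene alone. No gene of the 17599 was called in this interaction by the quasi-likelihood test, although 1245 genes, *SLC7A5* among the 9 carriers, had an unadjusted p under 0.05. With the block *SLC7A5* was called (-0.88, edgeR adjusted p = 0.0419), 1 of 9 carriers where 1.03% of all genes were called, and it was called without experiment 2 (-1.03, where 9.84% of all genes were called) and by DESeq2 (where 0.505% were called). Against the single response to 30 µg/cm2, 0 of the 9 carriers were called by edgeR, where 1.82% of all genes were. DESeq2 called 2, where 4.48% were called, and 3 of the 9 had an unadjusted p under 0.05 with either tool. With the block 6 of the 9 were called lower, where 14.6% of all genes were called and 7.82% lower. These were *SLC7A5* (-0.66), *SLC3A2* (-0.64), *SLC7A1* (-0.99), *SLC1A4* (-1.06), *SLC6A9* (-1.69) and *SLC43A1* (-0.66). Without experiment 2 the count was also 6, where 21.6% of all genes were called.

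The controls of both protocols differed in some carriers as well, and the cells of the repeated protocol had been plated at a lower density and grown longer. Time in culture, plating density and the separate experiments cannot be told apart here. *SLC7A1* was 1.98-fold higher in the 7-day than in the 24-h controls (log2 fold-change 0.98, SE 0.222, edgeR adjusted p = 0.00490), with 296 to 309 CPM against 139 to 174 CPM. It was the only carrier called, 1 of 9 where 21.9% of all genes were called. *SLC6A9* and *SLC1A4* were also higher without overlap and *SLC38A2* was lower without overlap, so 4 of 9 genes were separate, as were 52.3% of all genes. Without experiment 2, 4 of the 9 were called, where 31% of all genes were called. These were *SLC7A1* (0.90), *SLC3A2* (0.80), *SLC1A4* (0.78) and *SLC6A9* (2.0). The count was 4 as well without the control of experiment 2 alone, and 2 without the experiment 2 library of 1 µg/cm2.

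The untreated cells of experiment 2 at 24 h were nearer to the 7-day controls in most of these genes, but not in *SLC7A1* or *SLC38A1*. Relative to the mean of experiments 1 and 3, this control held 3.63 times the *SLC6A9* mRNA, 1.82 times the *SLC3A2*, 1.67 times the *SLC1A4*, 1.62 times the *SLC1A5* and 1.35 times the *SLC43A1*, but 0.76 times the *SLC38A1* and 0.82 times the *SLC38A2*. *SLC7A5* was at 1.05 times and *SLC7A1* at 0.86 times. In 7 of the 9 carriers its level was nearer to the mean of the 7-day controls than to that of experiments 1 and 3, as in 40.6% of all tested genes. *SLC7A1* was at 139 CPM, the lowest 24-h control, where the 7-day controls held 296 to 309 CPM. *SLC38A1* was at 377 CPM, again the lowest, where they held 525 to 549 CPM. *SLC7A5*, counted among the 7, varied little, with all controls of both protocols between 575 and 669 CPM. Of 14 kinases, factors and markers of the amino acid response, 8 were highest in this control, as were 42.0% of all tested genes. It held 3.90 times the *DDIT3* mRNA of the others, 1.99 times the *CEBPG* and 1.73 times the *TRIB3*, and, of genes named after their values were seen, 8.15 times the *NUPR1* and 1.78 times the *ATF4*. It held less of 5 others, from 0.44 times the *MYC* to 0.88 times the *EIF2AK3*, and 1.00 times the *PPP1R15A*. Their part in the carrier results was not tested.

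The balance of the leucine carrier over its heavy chain varied between conditions. The ratio of *SLC7A5* to *SLC3A2* in RPKM was 1.75, 0.95 and 1.56 in the 24-h controls and 2.63, 1.00 and 2.35 after 1 µg/cm2. In experiments 1 and 3 the ratio was thus higher after the low dose than in the control, while in experiment 2 both values were near 1. After 30 µg/cm2 the ratio was 1.44, 1.13 and 1.45. In the repeated protocol it was 1.07, 1.03 and 0.97 in the controls and 1.02, 0.99 and 0.87 after daily exposure, so all 6 libraries were close to equal levels. The condition means were 1.42 ± 0.419, 1.99 ± 0.876, 1.34 ± 0.183, 1.02 ± 0.0494 and 0.960 ± 0.0781 (SD, n = 3) in this order, and the ranges of the 24-h conditions overlapped.

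**Figure D3:**
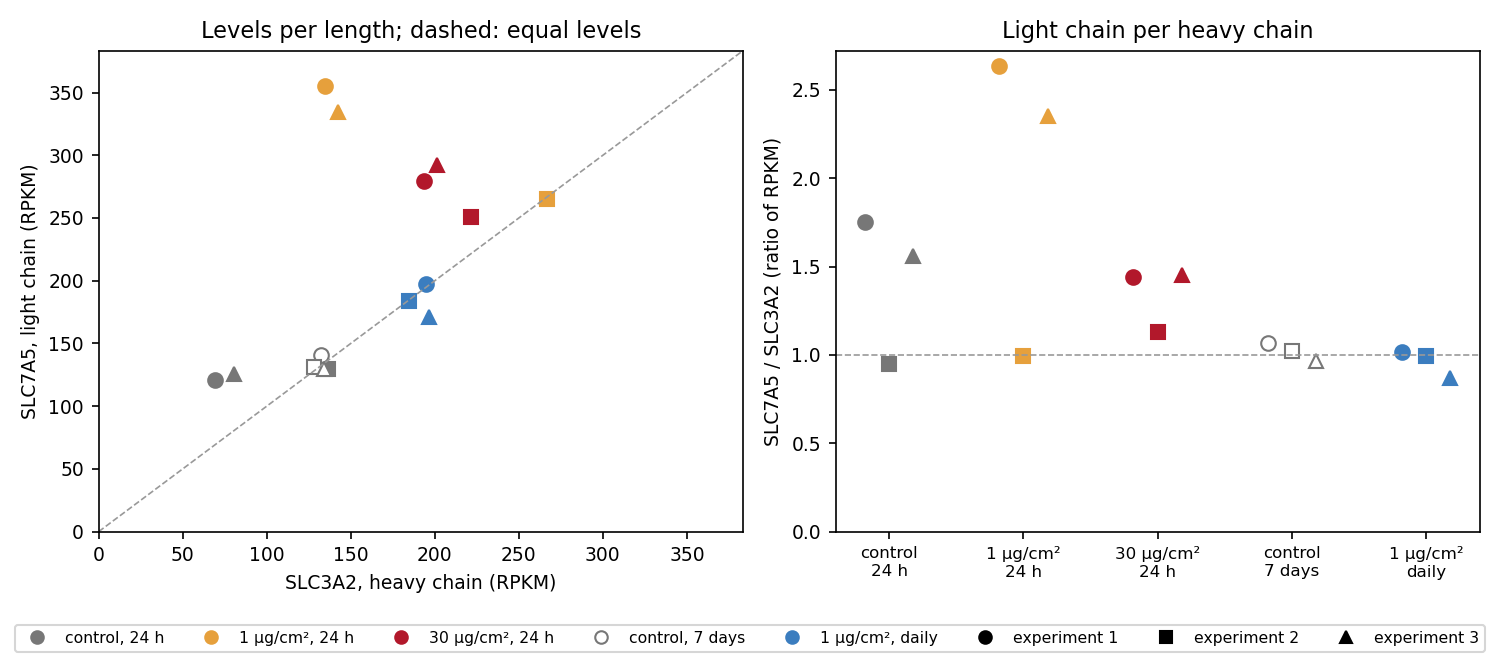
Left, RPKM of SLC7A5 (vertical axis) against SLC3A2 (horizontal axis) in each library, with a dashed line of equal levels; right, the ratio of both in each library by condition, with circles, squares and triangles for experiments 1, 2 and 3. Experiments 1 and 3 after 1 µg/cm2 lie farthest above the line, at ratios of 2.63 and 2.35, and the 6 libraries of the repeated protocol lie at 0.87 to 1.07.

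Other plasma membrane carriers of amino acids were called in both directions after 30 µg/cm2. Of 31 further carriers in the table, 17 passed the filter. Their median log2 fold-change was -0.31, against 0.03 over all tested genes. *SLC7A11*, the cystine carrier that also binds the *SLC3A2* heavy chain, was called higher, from 48.1 ± 39.1 to 366 ± 156 CPM (SD, n = 3, log2 fold-change 2.93, SE 0.507, edgeR adjusted p = 0.00229). In the controls of experiments 1, 2 and 3 it stood at 27.4, 93.2 and 23.7 CPM, and without experiment 2 the log2 fold-change was 4.14. *SLC7A8*, another light chain for large neutral amino acids, was called lower (-0.97), as were *SLC1A3*, a glutamate carrier (-1.70), and *SLC38A4*, a relative of *SLC38A1* and *SLC38A2* (-3.25). Without experiment 2 these 3 were at -0.77, -2.05 and -3.62. That is 1 higher and 3 lower of 17, where 8.07% of all genes were called. With the block it was 2 higher and 5 lower, where 15.2% were called, and without experiment 2 it was 2 higher and 6 lower, where 19.1% were called.

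Some relatives of the 9 were not called after 30 µg/cm2 in the fit of all 15 libraries. *SLC7A6*, a further light chain, had a log2 fold-change of -0.16, *SLC43A2*, a relative of *SLC43A1*, had 0.40, and *SLC38A5* had -0.23. Without experiment 2 *SLC38A5* was called lower (-0.68, edgeR adjusted p = 1.86e-05). *SLC7A2*, a cationic carrier like *SLC7A1* that is named here after its values were seen, had -0.81 (edgeR adjusted p = 0.0734), and was called lower with the block (-0.80, edgeR adjusted p = 1.55e-05) and without experiment 2 (-0.83). After 1 µg/cm2 and after daily exposure the edgeR test called 0 of the 17, with 1 and 3 at an unadjusted p under 0.05, and DESeq2 called 0 as well, with 1 and 3. After 1 µg/cm2 *SLC7A2* was called lower with the block (-0.72, edgeR adjusted p = 0.00171) and without experiment 2 (-0.73), and *SLC7A11* was called higher without experiment 2 (1.22, edgeR adjusted p = 0.000865). After daily exposure 0 were called with the block, and *SLC6A14* alone, at 0.617 CPM in the controls, was called higher without experiment 2 (2.14, edgeR adjusted p = 0.0418), where 6.03% of all genes were called. Its daily libraries ran from 0.778 to 6.61 CPM (2.74 ± 3.35, SD, n = 3), against 0.257 to 0.910 CPM in the controls. The groups thus overlapped, and the SD was larger than the mean. Between the controls of both protocols, *SLC7A8* was 1.76 higher on the log2 scale at 7 days, while *SLC43A2* (-0.85), *SLC38A4* (-1.18) and *SLC38A5* (-1.60) were lower. With *SLC6A14* and *SLC6A20*, also called higher there, 6 of the 17 were called, where 21.9% of all genes were. The 24-h means of the latter 2, 0.0100 and 0.0358 CPM, are under the floor of 3 counts and no fold is given.

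**Figure D4:**
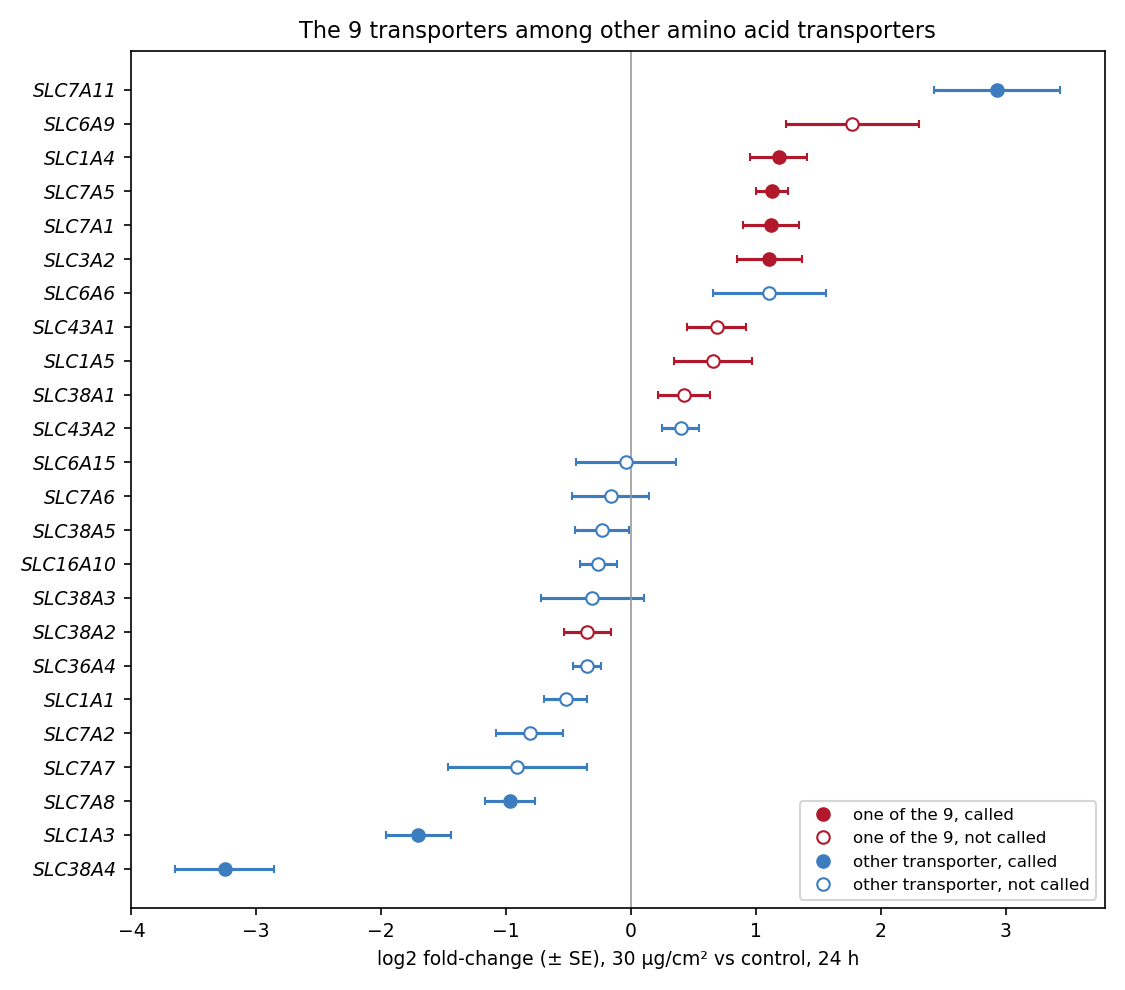
Log2 fold-change with SE after 30 µg/cm2 for 24 h against control (horizontal axis) for the 9 carriers (red) and 15 other plasma membrane amino acid carriers (blue), filled where called; 2 others with levels under the floor are not drawn. All red points except SLC38A2 lie above 0, while the blue points run from -3.25 for SLC38A4 to 2.93 for SLC7A11.

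Around these carriers in the pathway, a few genes of each list were called. Of 8 genes listed for the lysosome membrane, not all of them amino acid carriers, 7 were tested. After 30 µg/cm2 *SLC66A1*, which exports cationic amino acids from the lysosome, was called higher (0.71, edgeR adjusted p = 0.0335), with a list median of 0.16. Of 22 genes that sense amino acids for mTORC1, all were tested and 2 were called higher, *LARS1*, the leucyl-tRNA synthetase (0.65), and *RRAGD*, a subunit of the Rag GTPases (0.75), with a list median of -0.05. Of the 14 genes of the amino acid response, 3 were called higher, *TRIB3*, an ATF4 target (2.61), *PPP1R15A*, which directs the dephosphorylation of eIF2α (2.44), and *CEBPG*, a partner of ATF4 (1.01), with a list median of 0.58. These counts of 1 of 7, 2 of 22 and 3 of 14 stand against 3.82% of all genes called higher, and the medians against 0.03. With the block 7 of the 14 were called higher, where 7.36% of all genes were, and without experiment 2 also 7, where 9.16% were. Without experiment 2 *LARS1* was at 0.56, under the fold required for a call. Of the 22 sensing genes, 3 were called higher with the block and 4 without experiment 2. Among these, named here after their values were seen, was *SESN2* (1.12, edgeR adjusted p = 0.0792 in the fit of all 15 libraries). It was called with the block (1.34, edgeR adjusted p = 0.00414) and without experiment 2 (1.91, edgeR adjusted p = 2.08e-09). *SESN1* was called without experiment 2 only (0.64, edgeR adjusted p = 0.000227).

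In the other comparisons the calls in these lists depended on the fit. Between 30 and 1 µg/cm2, 2 of the 14 response genes were called higher, where 3.62% of all genes were. With the block 6 of the 14 were called higher, where 15.6% of all genes were called in either direction. Without experiment 2 it was 8, where 17.3% were called in either direction. After 1 µg/cm2 the edgeR test called 0 of the 14 response genes, with 0 at an unadjusted p under 0.05, and DESeq2 gave 0 and 0. *SLC7A5* was 2.54-fold higher at that dose, and any part of the amino acid response in that rise was not tested. After daily exposure both tools called 0 of the 14, with 4 in edgeR and 5 in DESeq2 at an unadjusted p under 0.05, and without experiment 2 *ATF3* (1.12) and *TRIB3* (0.87) were called higher. In the daily response minus that to 30 µg/cm2, *PPP1R15A* (-1.93) and *RRAGD* (-1.13) were called lower, 1 of 14 and 1 of 22 where 1.82% of all genes were called. With the block 5 of the 14 were called lower in this contrast, where 7.82% of all genes were. Without experiment 2 it was 7 of the 14, where 21.6% of all genes were called in either direction. Between the controls, where 21.9% of all genes were called, 5 of the 14 were higher at 7 days, *DDIT3* (2.45), *TRIB3* (1.59), *CEBPG* (1.32), *PPP1R15A* (1.24) and *EIF2AK3* (0.72). Of the 22 sensing genes 6 were called, a share near that of all genes, and of these *FNIP1* (1.33), *FLCN* (1.00), *SAMTOR* (0.80) and *RRAGD* (0.75) were higher, and *LAMTOR1* (-0.79) and *RRAGA* (-0.76) were lower.

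Each called carrier was also matched with the genes whose pattern over the 5 condition means was most like its own, by the root mean square difference of log2 CPM after centring. This is a description over 5 means that share their libraries. Nearest to *SLC7A5* were *CADM1* (0.119), *TAGLN3* (0.167) and *GOLGA7B* (0.206), and its heavy chain *SLC3A2* came 116th of 17598 genes, at 0.337. Nearest to *SLC3A2* were *TWF2-DT* (0.0992), *IL23A* (0.119) and *ACRV1* (0.124). *RNF227* (0.0497), *GSAP* (0.0569) and *TAS2R5* (0.0622) were nearest to *SLC7A1*, and *GPR155-DT* (0.0594), ENSG00000280374 (0.0643) and *LRRC75B* (0.0664) to *SLC1A4*. *TAGLN3* and *GOLGA7B* lie close to the floor of 3 counts, with condition means of 0.129 to 0.530 CPM and 0.293 to 0.712 CPM, and *CADM1*, *TWF2-DT*, *IL23A*, *ACRV1*, *TAS2R5* and *GPR155-DT* had condition means of at most 1.78 CPM.

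The carriers are spread over 7 chromosomes, and parts of 3 share bases with other genes. On GRCh38, as in the deposited table, *SLC7A5* lies on chromosome 16 from 87830023 to 87869488, *SLC3A2* on chromosome 11 from 62856102 to 62888875, *SLC43A1* on the same chromosome from 57484534 to 57515786, and *SLC7A1* on chromosome 13 from 29509410 to 29595688. *SLC38A1* and *SLC38A2* are neighbours on chromosome 12, from 46183063 to 46270017 and from 46358189 to 46372867. *SLC1A4* lies on chromosome 2 from 64988477 to 65023865, *SLC1A5* on chromosome 19 from 46774883 to 46788594, and *SLC6A9* on chromosome 1 from 43991500 to 44031467. Exons of *SLC6A9* share 404 bases (7.83%) with *CCDC24*, which lies on the other strand and has 4596 counts in all. Those of *SLC1A5* share 780 bases (23.4%) with ENSG00000275719, which has 136 counts, and those of *SLC7A5* share 271 bases (5.71%) with ENSG00000260466, which has 71 counts, all on the other strand. The strand used in counting is not given in the sources used here, so the values of these 3 carriers are uncertain to that extent. The pseudogenes *SLC7A5P1* and *SLC7A5P2*, with which *SLC7A5* could share reads, held 379 and 0 counts over all 15 libraries.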

How the data were processed

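Poly-A selected RNA was sequenced as single-end reads, and the authors aligned them to GRCh38 with STAR and deposited raw counts per gene from featureCounts, without normalization. The labels name hg19, but the coordinates of the deposited table are those of GRCh38. The annotation, strand and options are not given in the sources used here. Counts of 58219 genes, of which 57437 were matched to a symbol, entered edgeR 4.0.16 in R 4.3.3 (filterByExpr by condition, TMM, quasi-likelihood fit of all 15 libraries in the earlier mode with a mean per condition). Calls needed a Benjamini-Hochberg adjusted p-value under 0.05 over all 17599 tested genes and a log2 fold-change of 0.6 or more in size. SEs were obtained from the log2 fold-change and the square root of its F statistic, and intervals are 95% and cover single genes. Ratios inside an experiment are of TMM-normalized CPM, and RPKM used the exon lengths in the table. Intervals of counting error do not cover amplification.

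The series record gives the replicate number as the experimental batch. Same-numbered libraries correlated in their deviations from the condition mean at 0.201 to 0.721 at 24 h and 0.121 to 0.181 in the repeated protocol. Different numbers correlated at -0.683 to 0.453 and -0.127 to -0.0341. The 24-h ranges overlap, and deviations from a mean of 3 libraries sum to 0, which lowers the values between different numbers. The number, given as the batch, was used as a replicate block, separately in each protocol. Alternatives were RLE scaling, no filter or a filter at 1 CPM in 3 libraries, the current mode of edgeR, DESeq2 1.42.0, the likelihood ratio test, the libraries compared alone, no experiment 2, and each library left out. The edgeR quasi-likelihood fit with a mean per condition was tried on simulated data. No result of that trial is given here, so no conclusion about this fit or the alternatives is drawn from it. The 9 genes, the other lists and the named genes (all 9, list genes called in any comparison, close relatives, and the 3 genes most like each called carrier) were chosen with earlier results of these data known. The columns of position and length in the table were used, and the methylation files of the study were not used here.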

Additional observations from a re-analysis of the deposited data

How the results depend on the processing

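The number of the 9 carriers called moved most with the replicate block and with experiment 2. For 30 µg/cm2 against control it was 4, and 7 with the replicate block, 7 without experiment 2, 5 with DESeq2, 5 with the likelihood ratio test and 2 from the libraries compared alone. For 1 µg/cm2 it was 1, and 2 with the block, 2 without experiment 2 and 0 from the libraries compared alone. For 30 against 1 µg/cm2 it was 2, and 4, 5 and 0 in the same order. For the daily minus the single response to 1 µg/cm2 it was 0, and 1 with the block, 1 without experiment 2, 1 with DESeq2 and 1 with the likelihood ratio test. For the daily response minus that to 30 µg/cm2 it was 0, and 6 with the block, 6 without experiment 2, 2 with DESeq2, 2 with the likelihood ratio test, 1 without the filter and 1 from the libraries compared alone. Between the controls it was 1, and 4 without experiment 2 and 2 without the filter, and no block could be fitted there because the 2 protocols share no experiment. The likelihood ratio test took adjusted p-values alone, and outside the comparison of 1 µg/cm2 it was chosen after seeing the data. Daily exposure against control gave 0 under every alternative run. The block changed no call of a carrier other than those named. Each library left out in turn gave 3 to 7 for 30 µg/cm2, 1 for 1 µg/cm2, 0 to 5 between the doses, 0 to 2 for the daily response minus that to 30 µg/cm2, 1 to 4 between the controls, and 0 for the other comparisons. The cause of these moves was not tested. 

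Some uncalled log2 fold-changes turned sign. Without experiment 2 those after 1 µg/cm2 were -0.088 for *SLC1A5* and -0.15 for *SLC43A1*, *SLC38A2* between the doses was 0.060, and in the daily minus the single response to 1 µg/cm2 *SLC1A5* was 0.25 and *SLC43A1* 0.19, with *SLC1A5* at 0.019 under the block. With each library left out, the values after 1 µg/cm2 ran from -0.20 to 0.053 for *SLC38A1*, -0.37 to 0.52 for *SLC1A5*, -0.33 to 1.57 for *SLC6A9* and -0.31 to 0.30 for *SLC43A1*. After daily exposure they ran from -0.090 to 0.031 for *SLC38A1* and -0.010 to 0.078 for *SLC43A1*, and between the doses from -0.020 to 0.55 for *SLC3A2* and -0.15 to 0.17 for *SLC38A2*. In the daily minus the single response to 1 µg/cm2 they ran from -0.74 to 0.017 for *SLC3A2*, -0.19 to 0.028 for *SLC7A1*, -0.059 to 0.19 for *SLC38A1*, -0.49 to 0.16 for *SLC1A4*, -0.35 to 0.54 for *SLC1A5*, -1.13 to 0.77 for *SLC6A9* and -0.25 to 0.36 for *SLC43A1*. Between the controls *SLC43A1* ran from -0.0014 to 0.30. In the fit of all 15 libraries the interval of *SLC6A9* after 1 µg/cm2, -0.47 to 1.79, spans more than 2 log2 units. That of *SLC43A1*, also a low gene, ran from -0.40 to 0.62. In *SLC6A9* the 24-h control of experiment 2 held 3.63 times the mean of the other 2.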
